A study of Mus musculus with 8 samples.

Results

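The mouse liver carboxylesterases described here are 10 genes: Ces1b, Ces1c, Ces1d, Ces1e, Ces1f and Ces1g of the Ces1 cluster, Ces2a, Ces2c and Ces2e of the Ces2 cluster, and Ces3a. They were taken by symbol from the 52551 rows of each count file, and all 10 were found. Of these, 9 had enough reads to be tested among 8669 genes, and Ces2c did not. Livers came from PiZ/Chop-/- mice, which carry the PiZ transgene and lack Chop (gene Ddit3), with 4 libraries. They were set against 4 libraries of PiZ mice, which carry the same transgene with Chop intact. All were male C57BL/6 mice aged 6 weeks. PiZ is the human gene for the Z variant of alpha-1 antitrypsin, a protease inhibitor that hepatocytes secrete and whose Z form misfolds and is retained in their endoplasmic reticulum (ER). CHOP is a transcription factor made under ER stress, and Ddit3 reads stood at 1.72 to 4.19 CPM in the PiZ/Chop-/- libraries, against 85.4 to 191 CPM in the PiZ libraries. CPM is the read count divided by the scaled library size, a measure of relative abundance. The row of the human transgene, SERPINA1, stood at 620 ± 70.9 CPM in PiZ/Chop-/- and 1451 ± 374 CPM in PiZ (SD, n = 4 each). Its log2 fold change, PiZ/Chop-/- over PiZ, was -1.23 (adjusted p = 0.00873, edgeR), and the groups did not overlap. Loss of Chop and the lower transgene RNA level therefore go together in these libraries and cannot be told apart. No source used here gives the transgene's promoter, the deleted portion of Chop or whether each library is a separate mouse, and p-values cover only the spread among these 8 libraries. Wild-type livers, also part of the study's design, were not analysed here.

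Carboxylesterases are serine hydrolases that split ester bonds in drugs, pesticides and lipids, and they are among the most abundant enzymes of the liver ER. In mice the Ces1 branch includes hydrolases that release fatty acids from stored triacylglycerol for very low density lipoprotein (VLDL), and also an esterase that is secreted into plasma. Most family members enter the ER and are held there by a short signal at the end of the protein, which KDEL receptors read. Ces genes arose by tandem duplication, and liver nuclear receptors such as CAR and PXR are known to control some of them.

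The last codons of the coding sequence show this difference between stored and secreted members. The lines give the last 30 coding bases of 8 members from GENCODE M21 transcripts, 5′ to 3′, with the 4 codons before the stop codon in capitals.
Ces1b: gaccctactgagcacAGAGAACACAAAtga
Ces1c: gaccctactgaacacACAGAACACAAAtga
Ces1d: ccatcccacagggaaCATGTTGAGCTCtga
Ces1e: caactgccgacagaaCACACTGAGCTGtga
Ces1f: caaccccagccatacCACAATGAGCTGtga
Ces1g: tcatcccatagggaaCATGTTGAACTGtga
Ces2a: ggttctcaggacaagCATGCAGAGCTGtag
Ces3a: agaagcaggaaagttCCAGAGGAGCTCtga
In 7 of the 10 members (Ces1d, Ces1e, Ces1f, Ces1g, Ces2a, Ces2c and Ces2e), the 4 codons read histidine, any residue, glutamate and leucine, a known form of the retention signal. Ces3a keeps the final glutamate and leucine codons without the histidine codon, and Ces1b and Ces1c have neither. Ces1c encodes the esterase of mouse plasma.

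All 10 genes lie on chromosome 8 (mm10) in 2 groups. The Ces1 genes follow each other on the minus strand, from Ces1b at 93056728 to 93080017 through Ces1c at 93099015 to 93131283, Ces1d at 93166068 to 93197838, Ces1e at 93201218 to 93229619 and Ces1f at 93256236 to 93279747 to Ces1g at 93302369 to 93337308. Ces2a (104734003 to 104741634), Ces2c (104847068 to 104854483), Ces2e (104926260 to 104934672) and Ces3a (105048601 to 105058413) are on the plus strand. Coding sequences of members were between 62.2% and 91.2% identical, and Ces1b with Ces1c was the closest pair. The library method reads the 3' end of a transcript, so the last 300 bases of each transcript were split into all 226 runs of 75 bases, the read length. None of these runs occurred in a transcript of another gene for Ces1d, Ces1e, Ces1f, Ces1g, Ces2a or Ces2e. Ces1b and Ces1c shared 44 of 226 with each other, Ces2c shared 4 with the pseudogene Ces2d-ps and Ces3a shared 2 with Ces3b. Reads of Ces1b and Ces1c may therefore have been split or dropped. Ces3a overlaps the gene model Gm45724 on the other strand. No source used here gives the strand setting of the counting, so reads of this pair may be mixed. Ces1d overlaps the gene model Gm45909 on the same strand, where the strand setting does not matter. None of the 226 runs of Ces1d occurred in a transcript of Gm45909, but reads from outside its last 300 bases may be mixed.

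Total counts per library ran from 1650260 to 3064385. Measured by the mean correlation with the other libraries of its genotype, PiZ/Chop-/- library 2 (0.932) and PiZ libraries 1 and 4 (0.931 and 0.914) stood lowest, against 0.939 to 0.951 in the remaining 5. Summed hepatocyte markers (11 of 12 listed genes found, Alb and Ttr among them) stood at 58500 to 68688 CPM in PiZ/Chop-/- libraries and at 64727 to 80190 CPM in PiZ libraries. In whole liver, fewer cells of a type and less RNA per cell cannot be told apart.

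Ces1e and Ces1f rose in PiZ/Chop-/- livers, and no member passed the test as lower. These 2 of 9 tested members passed the test, both higher, where 0.335% of all 8669 tested genes were called higher, 0.692% lower and 1.03% in either direction (edgeR quasi-likelihood test, Benjamini-Hochberg adjusted p below 0.05). Log2 fold changes, PiZ/Chop-/- over PiZ, were above 0 for 8 of the 9, with a median of 0.55, against 49.8% of all tested genes and a median of 0.00. The members' median was 0.34 without PiZ library 1. An unadjusted p below 0.05 was found for 5 of the 9, all higher (Ces1d, Ces1e, Ces1f, Ces2e and Ces3a), against 13.1% of all tested genes in either direction. CPM values of the groups did not overlap for 4 members, Ces1e, Ces1f, Ces2e and Ces3a, all higher. For Ces3a this depended on the scaling, as shares of unscaled reads overlapped. Over all tested genes the share without overlap was 7.88% in either direction and 3.66% with the PiZ/Chop-/- libraries higher.

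Ces1e (ENSMUSG00000061959) encodes egasyn, which holds part of the liver's beta-glucuronidase in the ER. It had 420, 413, 384 and 297 CPM in PiZ/Chop-/- libraries 1 to 4, against 164, 198, 146 and 109 CPM in PiZ libraries 1 to 4. Every PiZ/Chop-/- library lay above every PiZ library, and the lowest of each group was library 4. The mean was 378 ± 56.6 CPM in PiZ/Chop-/- and 154 ± 37.3 CPM in PiZ (SD, n = 4 each). The difference was 2.45-fold, a log2 fold change of 1.30 (SE 0.21, 95% interval 0.85 to 1.74, adjusted p = 0.00458, edgeR). The exact two-sided permutation p was 0.0286, the smallest that 4 against 4 can give. Gusb, the beta-glucuronidase gene, stood at 25.8 ± 4.53 CPM in PiZ/Chop-/- and 21.7 ± 4.06 CPM in PiZ (SD, n = 4 each; log2 fold change 0.25, adjusted p = 0.700, edgeR).

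Ces1f (ENSMUSG00000031725), the next gene to Ces1e on the chromosome and listed by RefSeq under the synonym TGH-2, had 295, 209, 195 and 229 CPM in PiZ/Chop-/- libraries 1 to 4. PiZ libraries 1 to 4 had 80.6, 142, 105 and 85.4 CPM. The groups did not overlap, and PiZ/Chop-/- library 1 was the highest. Means were 232 ± 44.2 CPM in PiZ/Chop-/- and 103 ± 28.1 CPM in PiZ (SD, n = 4 each), a 2.24-fold difference with a log2 fold change of 1.17 (SE 0.21, 95% interval 0.71 to 1.62, adjusted p = 0.0120, edgeR). Leaving out PiZ/Chop-/- library 1 ended the call (log2 fold change 1.03, adjusted p = 0.0569), as did leaving out both PiZ libraries 1 and 4 (0.91, adjusted p = 0.0585). Together Ces1e and Ces1f made up 18 ± 2.94% of the members' CPM in PiZ/Chop-/- libraries and 11.6 ± 4.12% in PiZ libraries (SD, n = 4 each).

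Ces1d encodes triacylglycerol hydrolase, which mobilises stored fat for VLDL, and lies 3.4 kb from Ces1e. It had 29.7, 46.6, 60.6 and 75.0 CPM in PiZ/Chop-/- libraries 1 to 4, against 14.1, 11.2, 24.1 and 37.0 CPM in PiZ libraries 1 to 4. The groups overlapped only in PiZ library 4, which was above PiZ/Chop-/- library 1. The log2 fold change was 1.28 (SE 0.37, 95% interval 0.49 to 2.07), close to that of Ces1e but with a wider interval, and it missed the threshold (adjusted p = 0.151, edgeR). Without PiZ library 4 it passed (1.66, adjusted p = 0.0264), and so it did with DESeq2, whether given all genes with reads (1.29, adjusted p = 0.0433) or the same 8669 genes (1.29, adjusted p = 0.0384), and in the fit of all genes unfiltered (1.29, adjusted p = 0.000108).

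The plot by place on the chromosome shows the fold changes along the Ces1 cluster. The 3 neighbours Ces1d, Ces1e and Ces1f had log2 fold changes between 1.17 and 1.30. On one side of them Ces1c and Ces1b had 0.20 and 0.19, and on the other Ces1g had -0.15. Within 1 Mb of the cluster, 8 other genes were tested and none was called (lowest adjusted p 0.313, edgeR), where 1.03% of all tested genes were called. Their log2 fold changes ran from -1.63 to 1.15, with a median of -0.08. Within 1 Mb of the Ces2 and Ces3 genes, 1 of 31 other tested genes was called, Nol3, which was lower (log2 fold change -1.96, adjusted p = 0.0320). Ddit3 lies on another chromosome, 10.

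**Figure D1:**
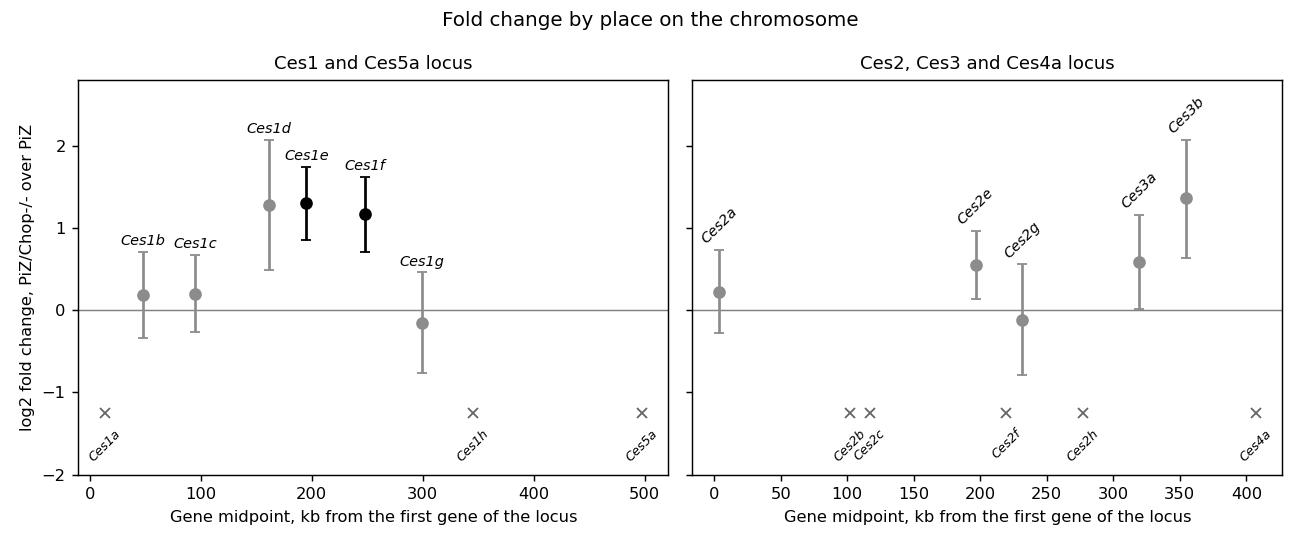
Log2 fold change, PiZ/Chop-/- over PiZ, of each carboxylesterase (points, with 95% intervals) against its distance in kb from the first gene of its locus; black points passed the test, grey points did not, and crosses along the foot mark the place of genes with too few reads to be tested and stand for no value. Ces1d, Ces1e and Ces1f sit side by side at 1.17 to 1.30, and Ces1b, Ces1c and Ces1g lie between -0.15 and 0.20.

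Ces1c, the plasma esterase, was the second most abundant member and did not pass. It had 646, 783, 913 and 878 CPM in PiZ/Chop-/- libraries 1 to 4, against 621, 581, 566 and 1035 CPM in PiZ libraries 1 to 4. PiZ library 4 stood above all other libraries, and the other 3 PiZ libraries lay below every PiZ/Chop-/- library. The log2 fold change was 0.20 (SE 0.22, 95% interval -0.27 to 0.67, adjusted p = 0.753, edgeR), and it was 0.47 without PiZ library 4 (adjusted p = 0.254) and 0.11 without PiZ library 3 (adjusted p = 0.897). Ces1b, the close relative of Ces1c, had 22.3, 30.5, 23.3 and 38.7 CPM in PiZ/Chop-/- libraries 1 to 4, against 24.6, 22.3, 21.9 and 32.3 CPM in PiZ libraries 1 to 4. Library 4 was the highest of both groups, and the groups overlapped, with a log2 fold change of 0.19 (95% interval -0.34 to 0.71, adjusted p = 0.795) that moved to 0.01 when PiZ/Chop-/- library 4 was left out and to 0.34 when PiZ library 4 was.

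Ces1g, whose loss in mice raises VLDL output and liver fat, had 26.9, 41.4, 51.1 and 51.7 CPM in PiZ/Chop-/- libraries 1 to 4. In PiZ libraries 1 to 4 it had 27.1, 57.8, 37.0 and 67.9 CPM. The ranges overlapped widely, with library 1 lowest in both groups. The log2 fold change of -0.15 (SE 0.29, 95% interval -0.76 to 0.46, adjusted p = 0.871, edgeR) turned to 0.09 without PiZ library 4 and to 0.02 without PiZ/Chop-/- library 1.

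**Figure D2:**
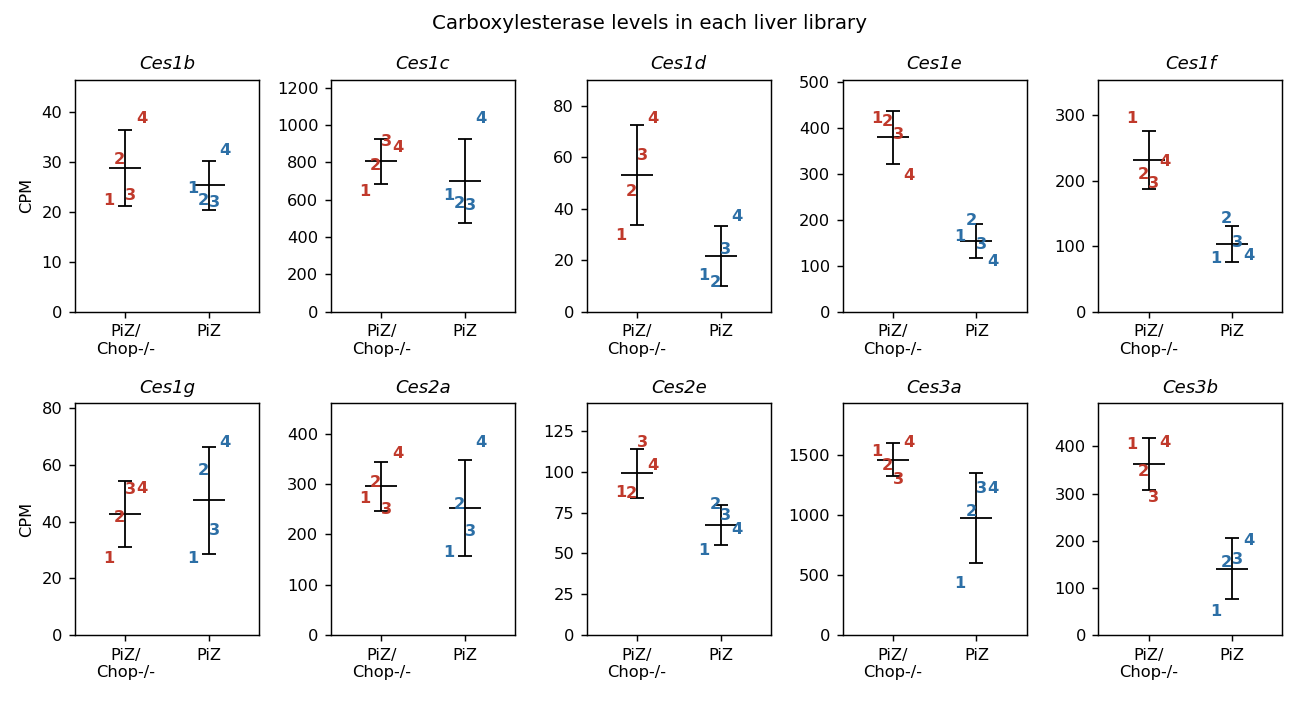
CPM of the 9 tested members and Ces3b (vertical axes from 0) in each library; coloured digits are the library numbers, PiZ/Chop-/- on the left and PiZ on the right, with the black line and bar giving mean and SD (n = 4). The groups are apart for Ces1e, Ces1f, Ces2e, Ces3a and Ces3b and overlap for the others. For Ces3a, shares of unscaled reads overlap.

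Ces3a was the most abundant member. It had 1528, 1416, 1295 and 1609 CPM in PiZ/Chop-/- libraries 1 to 4, against 428, 1035, 1223 and 1219 CPM in PiZ libraries 1 to 4. In scaled CPM the groups did not overlap, PiZ libraries 2 to 4 lay close below the PiZ/Chop-/- libraries, and PiZ library 1 stood far below the rest. Without scaling the groups overlapped. Ces3a had 2608 of 2020326 counts in PiZ/Chop-/- library 3, a smaller share than the 2568 of 1937449 in PiZ library 4. The log2 fold change was 0.58 (SE 0.27, 95% interval 0.01 to 1.16), with an unadjusted p of 0.0477 and an adjusted p of 0.376 (edgeR). Without PiZ library 1 it was 0.34 (adjusted p = 0.489).

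The Ces2 branch, whose enzymes split drug esters and acylglycerols, had no called gene. Ces2a had 271, 302, 249 and 361 CPM in PiZ/Chop-/- libraries 1 to 4, against 164, 260, 206 and 383 CPM in PiZ libraries 1 to 4. PiZ library 4 was the highest of all 8 and PiZ library 1 the lowest, and the log2 fold change was 0.22 (95% interval -0.28 to 0.73, adjusted p = 0.738, edgeR). It was 0.07 without PiZ library 1 (adjusted p = 0.940) and 0.51 without PiZ library 4 (adjusted p = 0.260). Ces2e had 87.3, 86.8, 118 and 104 CPM in PiZ/Chop-/- libraries 1 to 4 and 51.7, 80.2, 73.0 and 64.5 CPM in PiZ libraries 1 to 4. These groups did not overlap, but the log2 fold change of 0.55 (SE 0.19, 95% interval 0.14 to 0.96) missed the threshold after adjustment (unadjusted p = 0.0121, adjusted p = 0.239). Ces2c had 2 reads in PiZ/Chop-/- library 2, 1 read in PiZ library 4 and none in the other libraries, too few to compare.

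By mean over all 8 libraries the order of levels, in CPM of transcript ends, was Ces3a (1219 CPM), Ces1c (753), Ces2a (274), Ces1e (266), Ces1f (168), Ces2e (83.1), Ces1g (45.1), Ces1d (37.3), Ces1b (27) and Ces2c (0.203). The library method takes reads from the transcript end, so these levels were not divided by length. Neighbours in this order, Ces2a with Ces1e, Ces1g with Ces1d and Ces1d with Ces1b, changed places between the groups. In PiZ/Chop-/- livers Ces1e (378 ± 56.6 CPM) was above Ces2a (296 ± 48.9 CPM), and Ces1d (53.0 ± 19.4 CPM) was above both Ces1g (42.8 ± 11.6 CPM) and Ces1b (28.7 ± 7.57 CPM). In PiZ livers Ces2a (253 ± 95.1 CPM) was above Ces1e (154 ± 37.3 CPM), and Ces1g (47.4 ± 18.7 CPM) and Ces1b (25.3 ± 4.82 CPM) were above Ces1d (21.6 ± 11.7 CPM; SD, n = 4 throughout).

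Summed over the 10 members, the level was 3326, 3330, 3288 and 3644 CPM in PiZ/Chop-/- libraries 1 to 4, against 1575, 2389, 2402 and 3033 CPM in PiZ libraries 1 to 4. Every PiZ/Chop-/- library was above every PiZ library, with means of 3397 ± 166 CPM in PiZ/Chop-/- and 2350 ± 598 CPM in PiZ (SD, n = 4 each). As a score over chosen genes the sum was given no test. Ces3a made up 39.4% to 45.9% of it in PiZ/Chop-/- libraries and 27.2% to 50.9% in PiZ libraries, and Ces1c 19.4% to 27.8% in PiZ/Chop-/- and 23.6% to 39.4% in PiZ libraries. Of all reads of a library, 0.301% to 0.370% came from the members in PiZ/Chop-/- and 0.155% to 0.330% in PiZ, so shares of unscaled reads overlapped. The Ces1 genes summed to 1540 ± 78.9 CPM in PiZ/Chop-/- and 1052 ± 214 CPM in PiZ, and the Ces2 genes to 395 ± 48.8 CPM in PiZ/Chop-/- and 321 ± 99.2 CPM in PiZ (SD, n = 4 each).

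**Figure D3:**
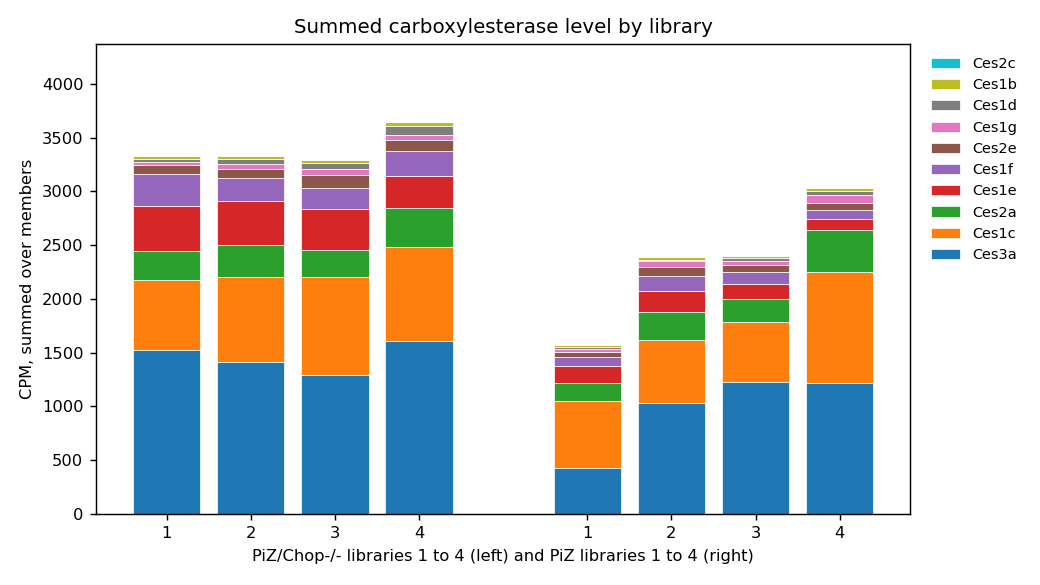
CPM of the 10 members stacked for each library (vertical axis from 0), PiZ/Chop-/- libraries on the left and PiZ libraries on the right. Sums run from 3288 to 3644 CPM in PiZ/Chop-/- libraries and from 1575 to 3033 CPM in PiZ libraries, where library 1 has the least Ces3a.

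Members differed in how they varied among libraries of a group, and Ces1e and Ces1d were the most opposed. With each gene's log2 CPM centred on its group mean, 25 of 36 pairs of tested members had a Pearson r above 0 over the 8 libraries, given here as a description of libraries that share depth and scaling. Ces1c and Ces1d had 0.80 and Ces1g and Ces2a had 0.78. Ces1e had negative values against 6 of the other 8 members, with r of -0.92 to Ces1d, -0.78 to Ces1c and -0.75 to Ces1b. Ces1e and Ces1f, the called members, had an r of 0.51 with each other. Within PiZ, library 4 had the most Ces1b, Ces1c, Ces1d, Ces1g and Ces2a and the least Ces1e.

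**Figure D4:**
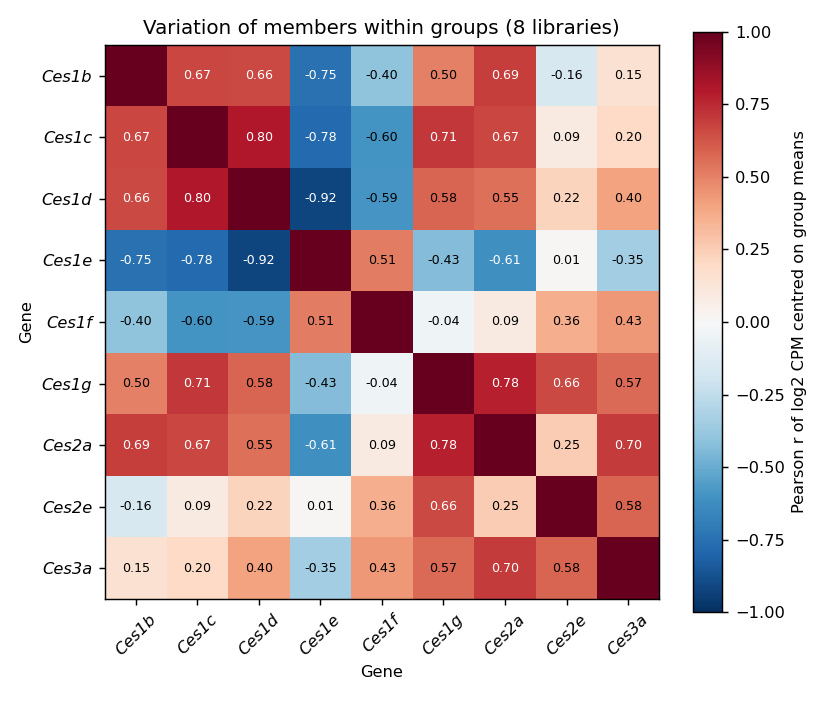
Pearson r of log2 CPM between tested members over 8 libraries, each gene centred on its group means (colour scale from -1 to 1). Ces1e has negative values against Ces1b, Ces1c, Ces1d, Ces1g, Ces2a and Ces3a, down to -0.92 with Ces1d, and a positive value of 0.51 with Ces1f.

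The centred mean of the 9 tested members was compared with 7440 other tested genes, Ces3b and Ces2g among them, whose log2 CPM averaged 3 or more. Those most like it were Med25 (r = 0.992 over 8 libraries), Rpp21 (0.984), Serpina1a (0.979), Tsg101 (0.978) and Gstm1 (0.976). None of them was called between the groups (adjusted p from 0.208 to 0.999, edgeR). As the highest of 7440 values over only 8 libraries, these r are inflated by the choice. The level that chance alone would reach was not tested.

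Of the other 9 carboxylesterase genes, 2 had enough reads to be tested and neither was called. Ces1h, Ces2f and Ces5a had no read in any library, Ces2h had 1, Ces1a had 5, all in PiZ, and Ces2b had 12 (9 in PiZ/Chop-/- and 3 in PiZ). Ces4a had 11, 8, 10 and 10 reads in PiZ/Chop-/- libraries 1 to 4, against 0, 5, 8 and 5 in PiZ libraries 1 to 4, too few to be tested after the filter. With no filter on low counts it had a log2 fold change of 1.30 (adjusted p = 0.403). Ces2g had 22.6 ± 3.17 CPM in PiZ/Chop-/- and 24.5 ± 12.5 CPM in PiZ (SD, n = 4 each; log2 fold change -0.12, adjusted p = 0.914, edgeR), and its sign turned without PiZ library 4 (0.27).

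Ces3b, which is 95.3% identical to Ces3a in coding sequence, had 404, 347, 291 and 409 CPM in PiZ/Chop-/- libraries 1 to 4. In PiZ libraries 1 to 4 it had 50.4, 154, 161 and 200 CPM, so the groups did not overlap. The log2 fold change of 1.36 (SE 0.33, 95% interval 0.64 to 2.07) missed the threshold (adjusted p = 0.0853, edgeR). It passed without PiZ library 1 (1.08, adjusted p = 0.0210) and with DESeq2 on all genes with reads (1.37, adjusted p = 0.00437) or on the same 8669 genes (1.36, adjusted p = 0.00490). In 12 of 18 alternatives it stayed uncalled, library size only among them (1.26, adjusted p = 0.143, edgeR). Over single libraries left out the adjusted p ran from 0.021 to 0.229.

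Ratios of paralogs within a library do not depend on how its reads were scaled. The Ces3b to Ces3a ratio was 0.264, 0.245, 0.225 and 0.254 in PiZ/Chop-/- libraries 1 to 4, against 0.118, 0.149, 0.131 and 0.164 in PiZ libraries 1 to 4. The groups were well apart, with a mean difference of 0.82 in log2 ratio (exact two-sided permutation p = 0.0286, the smallest possible, and 0.0762 adjusted over the 4 ratios compared). The Ces1e to Ces1c ratio averaged 0.484 ± 0.135 in PiZ/Chop-/- and 0.242 ± 0.0989 in PiZ (SD, n = 4 each; log2 difference 1.08, exact permutation p = 0.0571, adjusted 0.0762). The Ces1f to Ces1c ratio averaged 0.299 ± 0.107 in PiZ/Chop-/- and 0.161 ± 0.0702 in PiZ (SD, n = 4 each; log2 difference 0.95, exact permutation p = 0.0571, adjusted 0.0762). The Ces1d to Ces1e ratio, the last compared, differed by 0.05 in log2 (exact permutation p = 1). With 4 ratios, chosen after their values were seen, none passed 0.05 after adjustment.

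**Figure D5:**
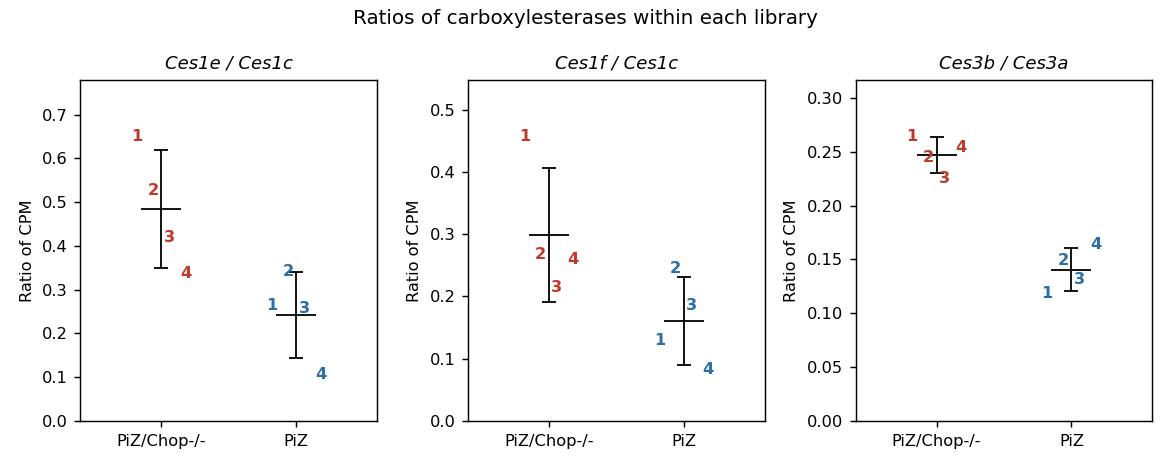
Ratio of the CPM of 2 carboxylesterases within each library (vertical axes from 0), for Ces1e over Ces1c, Ces1f over Ces1c and Ces3b over Ces3a; digits are library numbers, PiZ/Chop-/- on the left and PiZ on the right, with mean and SD (n = 4). Ces3b over Ces3a is 0.225 to 0.264 in PiZ/Chop-/- and 0.118 to 0.164 in PiZ, and the groups overlap for the other ratios.

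Promoter windows, the 250 bases before the start site, were at hand for 7 of the 10 members from RefSeq (GRCm38.p6), Ces1d, Ces1f and Ces3a not among them. Ces1e is shown as the called member with a window, and Ces2a as a member that was not called. Capitals mark TGCAAT or its reverse complement ATTGCA, a half-element bound by CHOP with C/EBP partners.
Ces1e promoter, chr8:93229620-93229869, minus strand: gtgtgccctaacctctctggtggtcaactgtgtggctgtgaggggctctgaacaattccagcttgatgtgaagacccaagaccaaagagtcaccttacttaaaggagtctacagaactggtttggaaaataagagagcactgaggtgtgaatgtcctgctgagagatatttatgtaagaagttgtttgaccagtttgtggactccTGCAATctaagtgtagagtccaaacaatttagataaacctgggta
Ces2a promoter, chr8:104733753-104734002, plus strand: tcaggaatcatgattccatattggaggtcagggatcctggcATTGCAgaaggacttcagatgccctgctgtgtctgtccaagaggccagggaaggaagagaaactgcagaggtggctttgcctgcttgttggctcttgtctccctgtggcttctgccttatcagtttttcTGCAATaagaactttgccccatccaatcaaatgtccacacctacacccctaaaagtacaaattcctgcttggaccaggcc
The 6 letters, searched on both strands, begin 45 bases before the start in Ces1e and 209 and 80 bases before it in Ces2a. They were also in the window of Ces2c and in 1 of 2 windows of Ces1b, so 4 of 7 members had them in any window. Of 32851 single promoter windows, 7.32% had them. Genes are counted in the first share and windows in the second, and members that arose by duplication are not independent. The difference was not tested. Ces1c, Ces1g and Ces2e had none. The letters ATCAAT (Onecut factors), CAAAGTCCA (HNF4) and GTTAAT (HNF1), searched on both strands, were in no member's window, against 6.72%, 0.384% and 6.43% of all windows.

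Other enzymes of ester and lipid breakdown had no called gene, with edgeR or with DESeq2. Of 21 other neutral lipid hydrolases and regulators 18 were tested and 3 had an unadjusted p below 0.05, with a median log2 fold change of 0.12 and Pnpla6, a phospholipid esterase (1.39, adjusted p = 0.155), and Lipc, hepatic lipase (0.53, adjusted p = 0.321), lowest in p. Of 17 other ester, amide and epoxide hydrolases 16 were tested and none had an unadjusted p below 0.05 (median -0.07), with Esd at -0.30 and Afmid at 0.44 (adjusted p = 0.501 and 0.509). Of the KDEL receptors, which hold carboxylesterases in the ER, Kdelr1 had 0.01 and Kdelr2 had -0.48 (adjusted p = 0.992 and 0.560). Of 19 VLDL assembly and lipid droplet genes 17 were tested and 4 had an unadjusted p below 0.05 (median -0.03), with the ER cargo receptor Surf4 at -0.67 and the apolipoprotein Apoc3 at 0.51 (adjusted p = 0.160 and 0.292).

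No regulator passed with edgeR. All 18 listed nuclear receptors and other liver regulators were tested, 16 had log2 fold changes above 0, 2 had an unadjusted p below 0.05 and the median was 0.19, which moved to 0.38 when PiZ library 4 was left out and to 0.11 when PiZ/Chop-/- library 3 was. Onecut1, a hepatocyte transcription factor, had 141 ± 37.2 CPM in PiZ/Chop-/- and 30.0 ± 29.2 CPM in PiZ (SD, n = 4 each). This log2 fold change of 2.23 (SE 0.60) missed the threshold (adjusted p = 0.185, edgeR) but passed with DESeq2 on all genes with reads (adjusted p = 0.0339) and on the same 8669 genes (adjusted p = 0.000334). Nr1i3, which encodes CAR, had 184 ± 79.0 CPM in PiZ/Chop-/- and 102 ± 18.3 CPM in PiZ (0.86, SE 0.30, adjusted p = 0.258). Of 13 genes that respond to CAR or PXR, 4 were above 0, 4 had an unadjusted p below 0.05, none was called with edgeR and the median was -0.34 (-0.11 without PiZ library 1). Among these the P450 gene Cyp2c55 had -1.35 and Alas1, the first enzyme of heme synthesis, 1.91 (adjusted p = 0.0648 and 0.214, edgeR), and both passed with DESeq2 (-1.34 and 1.91, adjusted p = 0.0317 and 0.00124).

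Marker lists of other cells held no called gene with edgeR, and with DESeq2 only Col1a1, lower (-1.15, adjusted p = 0.0294). Unadjusted p was below 0.05 for 5 of 13 tested macrophage, 1 of 9 stellate and 1 of 11 endothelial markers. Summed levels in PiZ/Chop-/- and PiZ libraries were 856 to 1006 and 1099 to 1575 CPM for 13 macrophage markers, 601 to 695 and 535 to 968 CPM for 11 stellate cell markers, and 451 to 514 and 320 to 411 CPM for 11 endothelial markers. Medians of the log2 fold changes of the tested genes were -0.34 for macrophages (lowest p Ctss, -0.75, and Cd5l, -0.71), -0.28 for stellate cells (Col1a1, -1.15, and Col3a1, -0.85) and 0.34 for endothelium (Gpr182, 1.12, and Bmp2, 0.52). The hepatocyte median was -0.01 (Ahsg, -0.50, and Apoa1, 0.49). Of 11 tested hepatocyte markers, 4 had an unadjusted p below 0.05 (edgeR), in both directions, against 13.1% of all tested genes. The macrophage sums were lower in every PiZ/Chop-/- library and the endothelial sums higher, as were Ces1e and Ces1f, and the part of these cells in the carboxylesterase levels was not tested. Fat cells also make Ces1d and Ces1f, and of 7 fat cell markers Adipoq, Lep and Retn had no read, with sums of 8.05 to 9.43 CPM in PiZ/Chop-/- and 9.23 to 20.4 CPM in PiZ libraries (Fabp4 alone tested, -0.87). Sums for the remaining lists overlapped between the groups, except T, NK and B cell markers at 2.79 to 4.60 CPM in PiZ/Chop-/- and 4.82 to 5.54 CPM in PiZ, none of which had enough reads to be tested. In PiZ/Chop-/- and PiZ libraries these were 20.4 to 51.2 and 29.4 to 48.2 CPM for cholangiocytes (Spp1, -0.89, and Sox9, 0.21) and 3.72 to 86.8 and 8.07 to 32.1 CPM for neutrophils (S100a8, 0.35, and S100a9, -0.25; Elane at 0). They were 341 to 1458 and 351 to 832 CPM for red cells (Alas2, 0.79, and Hbb-bt, 0.61) and 78.9 to 209 and 97.8 to 165 CPM for pancreas (Cela1, 0.09; Cpa1 and Amy2a5 at 0).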

How the data were processed

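Total RNA of liver was made into QuantSeq 3' mRNA libraries and sequenced from one end with 75-base reads, per the labels' protocols. Deposited files hold whole-number read counts for each gene with no normalization. The submitters' processing notes name STAR, HTSeq and mm10 without versions, and no source used here gives the annotation or the handling of multiply mapped reads and PCR copies. Each of 52551 rows was matched by Ensembl ID to GENCODE M21 (52403 found). The 8669 genes kept by filterByExpr (groups as the design, minimum count 10) were TMM-scaled and put through the robust quasi-likelihood test of edgeR 4.0.16 (R 4.3.3) without covariates, and Benjamini-Hochberg adjustment covered every tested gene. The SE is the log2 fold change divided by the square root of F. Log2 CPM for correlations and permutation tests used a prior count of 2. No molecular identifiers are named, so PCR copies may count more than once.

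Members and gene lists were chosen with earlier results of these data known. Named genes were all members, other carboxylesterases with reads, called genes of each list or else the 2 of lowest p, and the 5 genes most like the members. Nol3, Kdelr1, SERPINA1, the ratios and the sequences shown were picked once values had been seen. The fit was tested on simulated data for this comparison (8669 genes) and found 33% of changes of 2-fold and 91% of those of 4-fold. Of its calls, 5.34% were false. The changed genes were drawn at random from all tested genes, so these shares are not specific to the members' levels. Alternatives were RLE scaling, library size only, DESeq2 1.42.0 on the 19847 genes with reads, no filter or 5 CPM in 4 libraries, the 20 most abundant genes left out, a replicate block, each library left out, and PiZ libraries 1 and 4 left out. Leaving out PiZ/Chop-/- library 2 with these, and DESeq2 on the same 8669 genes as edgeR, were added after seeing the data. The protein features planned for the members were not analysed here; coding bases were used.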

Additional observations from a re-analysis of the deposited data

Results flagged for a closer look

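Over 24 groups of 4 libraries (11 carboxylesterases and the members' sum, in both genotypes), 3 values stood apart from the rest of their group by Dixon's test at 95%, where chance gives about 1 in 20. Single genes were examined on log2 CPM and the sum on plain CPM, so the flags depend on the scale. Ces1c in PiZ library 4 was 1035 CPM, above 566 to 621 CPM in the other PiZ libraries. Ces3a in PiZ library 1 was 428 CPM, below 1035 to 1223 CPM in the other PiZ libraries. The summed level of the members in PiZ/Chop-/- library 4 was 3644 CPM, above 3288 to 3330 CPM in the other PiZ/Chop-/- libraries.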

How the results depend on the processing

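The rise of Ces1e kept its call in all 18 alternatives (log2 fold change 1.10 to 1.44). That of Ces1f kept its direction in all 18 and its call in 16, the exceptions being PiZ libraries 1 and 4 left out together (0.91) and PiZ/Chop-/- library 1 left out (range over single libraries 1.03 to 1.36). Members called numbered 1 to 3 over single libraries left out and 1 without PiZ libraries 1 and 4. Ces1d was called with DESeq2 on all genes with reads (1.29) or on the filtered genes (1.29), with no filter (1.29), with the replicate block (1.35) and without PiZ library 4 (1.66). It was not called in the other 13 of 18 alternatives, and ranged from 1.06 to 1.66 over single libraries left out. Ces1g turned positive in 2 of its alternatives, with a range of -0.33 to 0.09 over single libraries left out; Ces2g ranged from -0.35 to 0.27 over single libraries left out and had 0.36 without PiZ libraries 1 and 4 and 0.39 when PiZ/Chop-/- library 2 was left out as well. All genes called, 89, became 209 with DESeq2 on the 19847 genes with reads, 197 with DESeq2 on the same 8669 genes, 357 with edgeR on the 19847, 279 without these 3 libraries, and 46 to 169 over single libraries left out. The cause of these moves was not tested. Replicate numbers did not pair the libraries (r of deviations -0.058 to 0.072, and 3 of 8 libraries correlated best with their own number); the block gave 76 called genes and 3 members. The summed level differed by 1047 CPM, by 791 to 1285 over single libraries left out. Over the same omissions, medians ranged from 0.34 to 0.61 for the members, 0.07 to 0.19 for the neutral lipid hydrolases, -0.08 to 0.01 for the other hydrolases, -0.06 to 0.05 for the VLDL list and -0.54 to -0.24 for macrophage markers.

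At 1650260 to 3064385 counts per library, Ces2c and 7 relatives had too few reads for a test.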
